A study of Mus musculus with 2 samples.

Results

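The regulatory T cells described here were 202 barcodes of 1 droplet single-cell RNA-seq library, chosen by the transcripts they held. A barcode was selected on at least 1 unique molecular identifier (UMI, 1 counted RNA molecule) of Cd3d, Cd3e or Cd3g, which encode the CD3 chains of the T cell receptor complex. It also had 0 UMIs of the CD8 genes Cd8a and Cd8b1 and at most 1 UMI of the B cell genes Cd79a and Cd79b. Last, it held a UMI of Foxp3, or UMIs of both Ikzf2 (the factor Helios) and Ctla4. The library held 9591 barcodes, 8911 of them with a hashtag group, and the series held 14421 barcodes in 2 libraries.

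The hosts were BALB/c female mice of 7 to 8 weeks with metastases of the 4T1 mammary carcinoma line in the liver. Tumor cells were injected into part of the spleen, which was then removed. The mice received CBL0137, a curaxin that binds DNA and traps the histone chaperone FACT, by hepatic arterial infusion at a low or a high dose, or the vehicle. The sources used here do not assign an amount of drug to the low or the high group. Cells were taken on day 5. The labels give both libraries collagenase digestion, red cell lysis and a density gradient, whereas the study's methods give these for liver and, for spleen, passage through a strainer and red cell lysis. Cells of 2 mice were pooled in each group, and the vehicle, low-dose and high-dose cells of a tissue were marked with 3 hashtag antibodies and loaded together.

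Regulatory T cells are CD4 T cells that restrain other immune cells. Their identity is held by the transcription factor Foxp3, they take up interleukin 2 through a high-affinity receptor that includes Il2ra (CD25), and they carry the inhibitory receptor Ctla4. In the spleen, resting (central) regulatory T cells keep Tcf7, Lef1 and Ccr7 and circulate through lymphoid tissue, whereas activated (effector) regulatory T cells lower these genes and carry receptors such as Icos, Tnfrsf4 and Ccr2. Regulatory T cells are also known for dividing readily in response to interleukin 2 and antigen.

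The oligonucleotides on these antibodies are what assigned each regulatory T cell to its treatment, so their 15-base barcodes are shown here. All bases are the barcode itself.
A0301, vehicle: ACCCACCAGTAAGAC
A0305, low dose: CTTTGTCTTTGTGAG
A0310, high dose: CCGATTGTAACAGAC
A barcode was given the group of the hashtag with the most UMIs, if that hashtag had at least 10 UMIs and at least 3 times the next. Among the 202 regulatory T cells the median count of the cell's own hashtag was 1160 UMIs in the vehicle group, 1020 at the low dose and 489 at the high dose. The lowest were 104, 241 and 103 UMIs, and the median of the next hashtag was 14, 12 and 14 UMIs. The groups held 48, 73 and 81 regulatory T cells.

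Each group was thus 1 pooled sample in 1 library, with no replicate. No test between doses is possible, and no p-value is given. Intervals are exact 95% intervals that cover counting error only, and not the differences between mice. Both dose comparisons use the same vehicle cells.

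The library is labelled liver, but its deposited matrix carries the other tissue in its name, and its RNA went against the label. Clec4f, a gene of Kupffer cells, the liver's resident macrophages, and Alb, the albumin of hepatocytes, were at 0 UMIs among 72524511. In the library labelled spleen they stood at 133 and 30.7 CPM, counts per 1000000 UMIs. Stab2, a gene of liver sinusoidal endothelium, stood at 0.303 CPM here and at 40.6 CPM there. The genes of mature splenic B cells showed the opposite order, with Ighd at 80.1 against 23.1 CPM and Cr2 at 34.9 against 8.03 CPM. It is called here the library labelled liver. The study's single-cell methods describe cells isolated with CD11b beads, whereas its figure legends name leukocytes from the liver. Which was loaded is not settled by the sources used here.

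The regulatory T cells held a median of 3558 UMIs and 1523 genes in the vehicle group, 3695 UMIs and 1561 genes at the low dose, and 4125 UMIs and 1628 genes at the high dose. Their summed depth was 275197, 397704 and 525872 UMIs. A gene at 0 UMIs in a group was set at a floor of 3 UMIs over the group, which is 10.9, 7.54 or 5.70 CPM. The exact 95% interval of a count of 0 reaches higher, to 13.4, 9.28 and 7.01 CPM, so beside each fold against the floor the nearer end of the exact interval of the log2 ratio is also given. A level in CPM is a share of the group's RNA, so a few deep cells weigh more than many shallow ones.

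Most members met the rule through more than 1 gene. All of Foxp3, Ikzf2 and Ctla4 were detected in 72 cells, Foxp3 with Ikzf2 in 55, Foxp3 with Ctla4 in 9 and Foxp3 alone in 30. The other 36 cells held Ikzf2 and Ctla4 without Foxp3. T cell receptor constant-chain RNA was detected in 200 of the 202 cells. Cd4 itself was detected in 94. Whether the other cells lacked Cd4 RNA or were too shallow to show it was not tested.

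The routes differed in genes the rule did not use. Il2ra stood at 131.9 CPM in the cells with all 3 genes, at 198 CPM with Foxp3 and Ikzf2, at 203 CPM in the 9 cells with Foxp3 and Ctla4, at 131 CPM with Foxp3 alone, and at 41.9 CPM in the 36 cells without a Foxp3 UMI. Tnfrsf4, the co-stimulatory receptor OX40, stood at 629 CPM in the cells with all 3 genes and at 161, 259, 70.0 and 198 CPM in the other routes, in the same order. These values pool the 3 groups, and the order did not hold in each: at the low dose Il2ra was at 0 UMIs in the 12 cells with Foxp3 alone and at 83.9 CPM in the 11 cells without Foxp3.

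The edge of the rule can be described by its nearest cells, with no test. Just inside were 52 cells with exactly 1 Foxp3 UMI and no pair of Ikzf2 and Ctla4, with Il2ra at 92.0 CPM, Tnfrsf4 at 92.0 CPM and Izumo1r at 441 CPM. Just outside were 109 cells with Ikzf2 but no Ctla4, with Il2ra at 23.7 CPM and Tnfrsf4 at 72.3 CPM. A further 44 cells outside held Ctla4 but no Ikzf2, with Il2ra at 50.4 CPM and Tnfrsf4 at 165 CPM. The 776 cells with Cd4 and none of the 3 genes held 5.91 CPM of Il2ra, 25.8 CPM of Tnfrsf4 and 76.8 CPM of Izumo1r. The cells just outside held more Il2ra and Tnfrsf4 than those 776 cells.

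The rule's transcripts were also counted in other cells. A Foxp3 UMI was found in 0 of 1391 B cells, which allows a share of up to 0.265%, in 4 of 764 CD8 T cells (0.524%) and in 1 of 3419 barcodes with 50 or more UMIs of S100a8 and S100a9, the abundant neutrophil genes. Ikzf2 was found in 16 B cells (1.15%) and in 28 CD8 T cells (3.66%), and Ctla4 in 8 (0.575%) and in 12 (1.57%). The B cells had a depth similar to the members, with a median of 3603 UMIs, and the CD8 T cells were deeper, with 5812 UMIs.

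The markers that name these cells were compared with conventional CD4 T cells, the 841 cells that met the CD3, CD8 and CD79 conditions, held a Cd4 UMI and did not meet the rule. Foxp3 (mm10 chromosome X, 7573644 to 7595245, plus strand), Ikzf2 (chromosome 1, 69531214 to 69687245, minus strand) and Ctla4 (chromosome 1, 60887000 to 60915832, plus strand) chose the cells, so their levels are a description. Foxp3 held 72 UMIs in the vehicle cells (262 CPM), 130 at the low dose (327 CPM) and 149 at the high dose (283 CPM). It was detected in 37 of 48, 62 of 73 and 67 of 81 cells, and no cell held more than 10 UMIs of it. Ikzf2 held 243, 258 and 490 UMIs (883, 649 and 932 CPM). Ctla4 held 54, 180 and 105 UMIs (196, 453 and 200 CPM), with 31 of the 180 low-dose UMIs in 1 cell.

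Tnfrsf4 (chromosome 4, 156013843 to 156016612, plus strand) and Izumo1r (chromosome 9, 14885814 to 14903949, minus strand), which encodes folate receptor 4, were not used by the rule. Tnfrsf4 held 63, 171 and 198 UMIs in the regulatory T cells of the 3 groups (229, 430 and 377 CPM) and stood at 15.1, 37.2 and 45.6 CPM in the conventional CD4 T cells. Izumo1r held 78, 154 and 202 UMIs (283, 387 and 384 CPM) against 64.7, 63.6 and 135 CPM. In each group the summed level of each was higher in the regulatory T cells. The conventional cells were those left after the rule, so this describes the members as a set. It does not settle the label for each member, and the routes into the rule differed in Tnfrsf4, as given above.

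**Figure D1:**
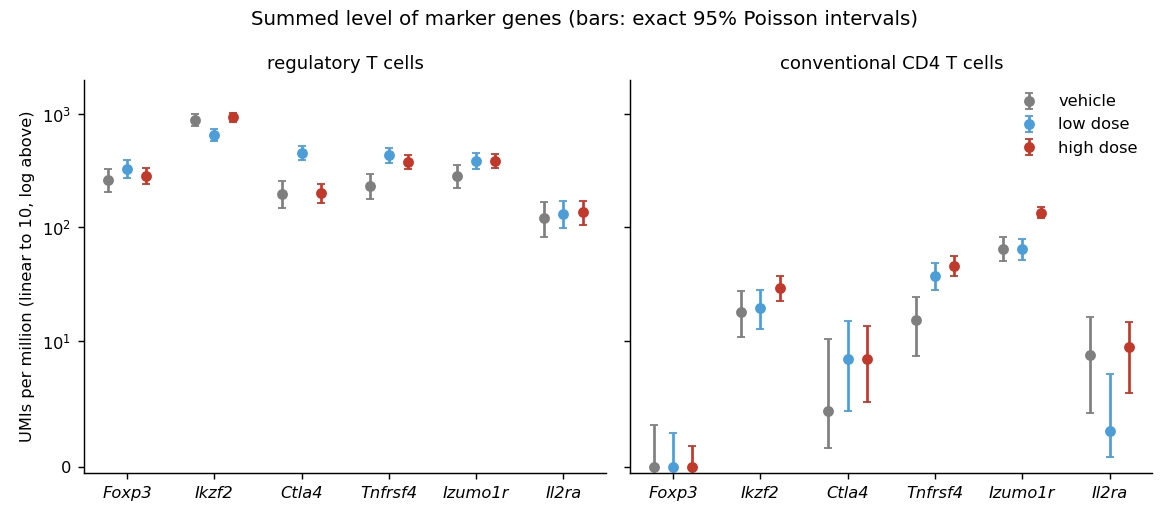
Summed level in CPM (vertical axis, linear to 10 and logarithmic above) of the 5 label markers and Il2ra in regulatory T cells (left) and conventional CD4 T cells (right) of each group, with exact 95% Poisson intervals for counting error. Foxp3 was at 0 UMIs in the conventional cells by construction, and Tnfrsf4 and Il2ra, which the rule did not use, were higher in the regulatory T cells of all 3 groups.

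What else set the members apart from conventional CD4 T cells is a description of the chosen cells, since the rule made this contrast. Genes were compared where the 2 cell types together held 40 or more UMIs in each group, with the rule's own genes left out. Of 4230 such genes, 67 (1.58%) were at least 2-fold higher in the regulatory T cells in all 3 groups and 33 (0.78%) at least 2-fold lower. In a list of genes known for regulatory T cells, 10 of 10 with enough UMIs were at least 2-fold higher in all 3 groups. The list was chosen for this cell type, and other results of these data were known when it was written.

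Receptors for interleukin 2 and for co-stimulation were among the genes with the highest ratios. Il2ra (chromosome 2, 11642807 to 11693193, plus strand) stood at 120, 131 and 135 CPM in the vehicle, low-dose and high-dose regulatory T cells and at 8.86, 2.86 and 9.47 CPM in the conventional cells. Its log2 ratios were 3.76 (2.70 to 4.94), 5.51 (4.07 to 7.44) and 3.83 (3.11 to 4.61). Il2rb, the beta chain shared with the interleukin 15 receptor, had log2 ratios of 3.21, 2.94 and 2.57. Il7r, the interleukin 7 receptor chain kept by naive T cells, was lower in the regulatory T cells, at 767, 465 and 685 CPM against 1002, 778 and 925 CPM, which is less than 2-fold.

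Icos, a co-stimulatory receptor of the CD28 family, had log2 ratios of 2.79, 2.91 and 2.13, and Nrp1, a semaphorin co-receptor common on thymus-derived regulatory T cells, 3.55, 4.55 and 2.69. Tnfrsf18 (GITR) had log2 ratios of 1.59, 2.29 and 1.86. Of the transcription factors listed, 8 of 23 were at least 2-fold higher in all 3 groups and 4 were lower, against 1.58% and 0.78% of all genes compared. Rora, a nuclear receptor of tissue and effector T cells, had log2 ratios of 3.86, 1.95 and 3.19, Maf, a factor of interleukin 10 expression, 2.83, 2.64 and 1.90, and Gata3 1.33, 1.89 and 1.11.

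Of the effector list, 11 of 24 genes were at least 2-fold higher in all 3 groups and 0 were lower, against 1.58% and 0.78% of all genes compared. S100a4 had log2 ratios of 2.78, 2.80 and 3.09, S100a10 2.11, 2.59 and 2.35, the galectin gene Lgals1 1.94, 2.58 and 1.72, and Ccr2, a receptor that guides cells to inflamed tissue, stood at 251, 186 and 184 CPM against 88.6, 18.6 and 51.0 CPM. Cmtm7, Capg (an actin-capping protein), Ifi27l2a (an interferon-induced gene), Rgs1 (a brake on chemokine receptor signals) and Ift80 completed the 15 genes with the highest ratios.

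Among the lower genes were those of resting T cells. Of the central list, 11 of 19 genes were at least 2-fold lower in all 3 groups and 0 were higher, against 0.78% and 1.58% of all genes compared. By any amount 17 were lower. Lef1 stood at 127, 226 and 127 CPM against 560, 565 and 530 CPM in the conventional cells. Tcf7 stood at 120, 153 and 78.0 CPM against 343, 425 and 385 CPM, and Ccr7, the receptor that guides T cells into the T zone, at 83.6, 118 and 53.2 CPM against 228, 270 and 233 CPM. Tcf7 and Lef1 are the paired factors of the resting T cell state.

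Igfbp4 and Dapl1, both genes of naive T cells, had log2 ratios of -5.37, -2.56 and -4.85 and of -3.62, -2.77 and -4.85. Rflnb had -2.05, -2.01 and -2.23, and Klhdc1 -1.94, -2.26 and -2.69. Pdlim4 had 0 UMIs in the regulatory T cells of both doses, at least 9.48-fold lower at the low dose and 18.7-fold lower at the high dose, with 3 UMIs over the group as the floor, and with log2 intervals up to -2.92 and -3.92. By the same floor Tdrp was at least 3.41-fold lower in the vehicle group and 6.17-fold lower at the high dose, with log2 intervals up to -1.41 and -2.29. Pde5a was at least 5.44-fold and Vipr1 at least 3.25-fold lower in the vehicle group, with log2 intervals up to -2.11 and -1.34. Ltf and Ngp, granule genes of neutrophils, were also among the 10 lowest. Without the T cell barcodes rich in RNA of other cells, described below, the log2 ratios of Ltf were 1.29, -0.01 and -0.60 and those of Ngp 0.13, 0.25 and -0.07.

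**Figure D2:**
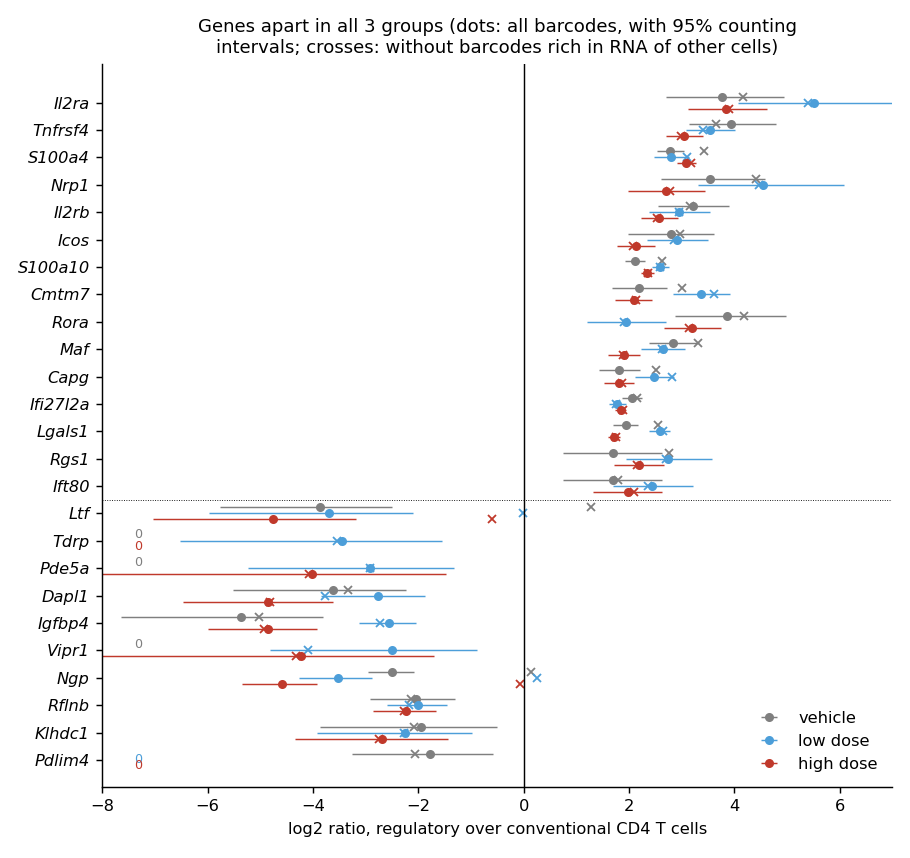
Log2 ratio of regulatory over conventional CD4 T cells (horizontal axis) for the 15 genes with the highest and the 10 with the lowest ratios over all 3 groups, with 95% counting intervals (dots) and without barcodes rich in RNA of other cells (crosses); a printed 0 marks a group with 0 UMIs in the regulatory T cells. Il2ra, Tnfrsf4, Nrp1 and Icos lie far to the right in each group, and only Ltf and Ngp among these genes move to about 0 or across it without those barcodes.

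The regulatory T cells also held a smaller share of ribosomal protein RNA, at 23.3%, 27.4% and 25.2% of UMIs in the 3 groups. The share was 34.4%, 35.2% and 35.2% in the conventional CD4 T cells and 37.3%, 36.5% and 40.9% in the CD8 T cells. No group of regulatory T cells reached the lowest of these.

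The study asked how CBL0137 changes the immune cells around liver metastases. For livers on day 5 it reported no significant increase in CD4 regulatory T cells with CBL0137. That is a different measure from the shares of barcodes given here, and no comparison was made. The first question for the regulatory T cells is how many there were. Their share of the barcodes with a hashtag group was 48 of 3360 in the vehicle group, 1.43% (1.06 to 1.89), 73 of 3408 at the low dose, 2.14% (1.68 to 2.69), and 81 of 2143 at the high dose, 3.78% (3.01 to 4.68), by the Clopper-Pearson method. The high dose was 2.35 percentage points above the vehicle (1.46 to 3.32), and the low dose 0.713 points (0.0626 to 1.37). Without barcodes of 5 or more UMIs of S100a8 and S100a9, or of Igkc and Ighm, the low-dose difference changed sign and the high-dose difference was smaller. Both values are given in the last section. Shares say nothing of the number of cells in a spleen or a liver.

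Other T cells took a larger share as well. The conventional CD4 T cells went from 5.83% of barcodes to 8.01% and 17.4%, and the CD8 T cells from 5.89% to 8.13% and 13.5%. Among CD4-type T cells, the regulatory and conventional cells together, the regulatory share was 48 of 244, 19.7% (14.9 to 25.2), 73 of 346, 21.1% (16.9 to 25.8), and 81 of 453, 17.9% (14.5 to 21.7). A Cd4 UMI was required of the conventional cells only. Of the regulatory T cells 22 of 48, 29 of 73 and 43 of 81 held a Cd4 UMI. Conventional cells without a Cd4 UMI are missing from the total, which raises the share by an amount that was not measured. The high dose differed from the vehicle by -1.79 points (-8.31 to 4.36) and the low dose by 1.43 points (-5.52 to 8.13), so that no difference was detectable at this number of cells. Of the regulatory, conventional CD4 and CD8 T cells together, regulatory cells made up 10.9%, 11.7% and 10.9%, with the same limit.

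Of all barcodes with a CD3 UMI and at most 1 UMI of the CD79 genes, the regulatory share was 4.55%, 5.24% and 6.69%, with the high dose 2.15 points above the vehicle (0.183 to 4.10). Without the CD3 barcodes that held 50 or more UMIs of S100a8 and S100a9 or 10 or more of Cd74, the difference was 0.802 points (-1.81 to 3.25). The part of such barcodes in the first value was not tested further.

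**Figure D3:**
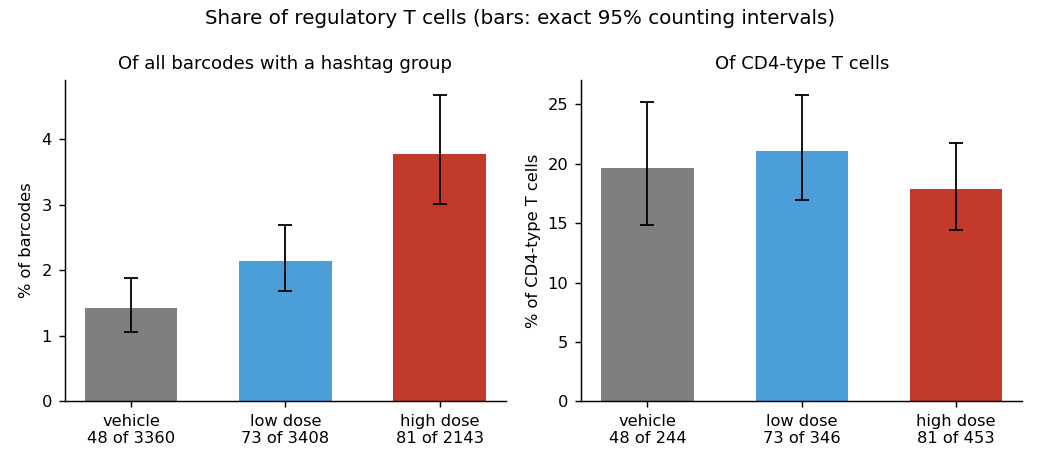
Regulatory T cells as a percentage of all barcodes with a hashtag group (left) and of CD4-type T cells (right) in each group, with the numbers of cells below and exact 95% counting intervals as error bars. The share of all barcodes stands at 1.43%, 2.14% and 3.78% from vehicle to high dose, while the intervals of the 3 shares of CD4-type T cells overlap. A Cd4 UMI was required of the conventional cells only.

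Before the levels are compared between doses, RNA of other cells in the members has to be described. In 7 of the 202 cells there were 50 or more UMIs of S100a8 and S100a9, or 10 or more of Cd74, the invariant chain of MHC class II. Of these cells 5 were in the vehicle group, 2 at the low dose and 0 at the high dose. The 5 vehicle cells held 18444, 18224, 17493, 14631 and 14434 UMIs, far above the group's median, and made up 30.2% of the UMIs of that group, against 5.36% at the low dose. One of them held 6581 UMIs of S100a8 and S100a9. Another held 249 UMIs of Cd74, 266 of MHC class II genes and 249 of Apoe, a macrophage lipid carrier. Each held CD3 UMIs, and all were counted as regulatory T cells by the rule.

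The summed level of the 18 neutrophil markers was 28194, 2504 and 1584 CPM in the regulatory T cells of the 3 groups, with S100a9 the most abundant. Without the 7 cells it was 1620, 1560 and 1584 CPM. The 14 dendritic cell markers went from 2784, 372 and 361 CPM to 271, 263 and 361 CPM, and the 16 monocyte and macrophage markers from 3786, 830 and 888 CPM to 370, 441 and 888 CPM. B cell RNA was lower and more even, at 320, 360 and 369 CPM for 13 markers, of which Ighm made up 77.6%. An Ighm UMI was found in 106 of the 202 cells, and 69 of these had neither an Igkc nor a CD79 UMI. Markers of natural killer cells stood at 901, 168 and 447 CPM, and at 41.7, 98.3 and 447 CPM without the 7 cells. Tyrobp, which neutrophils and macrophages also hold, made up 246 of the 248 UMIs of this list in the vehicle cells and 40 of 67 at the low dose. At the high dose it made up 63 of 235, and the granule protease gene Gzma 139. Values without these 7 cells are given below for genes whose call or sign changed among those named, and for the lists whose counts changed among those described.

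Genes were compared between doses where vehicle and dose together held 40 or more UMIs. At the high dose, 150 of 3078 genes (4.87%) were at least 2-fold higher than in the vehicle cells and 127 (4.13%) at least 2-fold lower. At the low dose 99 of 2611 genes (3.79%) were higher and 112 (4.29%) lower. The median log2 ratio of all genes compared was 0.07 at the high dose and 0.05 at the low dose. Of the higher genes, 108 of the 150 at the high dose (72.0%) and 68 of the 99 at the low dose (68.7%) were also past 2-fold both without the 7 cells and without the cell with the most UMIs of that gene in each group. Of the lower genes this held for 28 of 127 (22.0%) and 31 of 112 (27.7%). With the 7 cells left out and the same minimum of UMIs, 5.33% of genes were higher and 1.62% lower at the high dose, and 3.74% and 1.96% at the low dose.

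Of the gene lists compared, the cell-cycle list held the most higher genes. Of 50 cell-cycle genes in the list, 36 had enough UMIs at the high dose, 26 of them were at least 2-fold higher and 0 lower, with a median log2 ratio of 2.09. At the low dose 28 of 34 were higher and 0 lower, with a median of 2.29. Of all genes compared 4.87% were higher at the high dose and 3.79% at the low dose. The summed level of the list was 4339 CPM in the vehicle cells, 12517 CPM at the low dose and 12155 CPM at the high dose. Without the 7 cells it was 4787, 13100 and 12155 CPM. Then 26 of 34 genes were higher at the high dose and 25 of 34 at the low dose, against 5.33% and 3.74% of all genes. A gene near 0 in the vehicle cells had enough UMIs only through the dose group, so that these counts are a description. Of the 10 genes with at least 20 UMIs in the vehicle cells, 3 were higher at the high dose and 5 at the low dose.

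Among the genes with the largest rises, Top2a, the topoisomerase that untangles DNA before division, held 3, 175 and 169 UMIs in the vehicle, low-dose and high-dose cells, a log2 ratio of 4.88 at the high dose (3.31 to 7.17) and of 4.36 (2.79 to 6.65) without the 7 cells. Cdk1, the kinase that starts mitosis, held 0, 40 and 48 UMIs, at least 8.37-fold higher at the high dose against the floor of 3 UMIs, with a log2 interval from 2.71. Ccna2, its cyclin in S and G2 phase, held 0, 52 and 60 UMIs, at least 10.5-fold higher against the floor, with a log2 interval from 3.04. These 3 genes were near 0 in the vehicle cells and at similar counts in both doses.

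Histone genes that are transcribed in S phase followed the same pattern. Hist1h1b held 0, 272 and 201 UMIs, at least 35.1-fold higher at the high dose against the floor, with a log2 interval from 4.82, and from 4.30 without the 7 cells. Hist1h2ap held 1, 117 and 93 UMIs, a log2 ratio of 5.60 (3.09 to 10.9), and Hist1h2ae 2, 123 and 113 UMIs, a log2 ratio of 4.89 (3.00 to 7.95). Of the mitotic genes, Nusap1, which acts on the spindle, held 1, 73 and 87 UMIs, a log2 ratio of 5.51 (2.99 to 10.8). Knl1, of the kinetochore, held 0, 33 and 51 UMIs, at least 8.90-fold higher at the high dose against the floor, with a log2 interval from 2.80. Hmgb2, a chromatin protein of dividing cells and the most abundant gene of the list, had a log2 ratio of 1.59 at the high dose and 1.33 at the low dose.

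A few deep cells carried most of this RNA. In 1 of 48 vehicle cells there were at least 5 UMIs over Top2a, Mki67, Cdk1, Ccna2, Hist1h1b and Birc5 (2.08%, 0.0527 to 11.1), in 6 of 73 low-dose cells (8.22%, 3.08 to 17.0) and in 9 of 81 high-dose cells (11.1%, 5.21 to 20.0). The intervals of the 3 groups overlap. These cells held 20.8%, 83.8% and 79.6% of the UMIs of the cell-cycle list, and the remaining members stood at 3613, 3090 and 3763 CPM, with no order by dose. The median depth of the cells with 5 or more of these UMIs was 19252 UMIs at the low dose and 18859 at the high dose against 3695 and 4125 in all members. With each cell thinned to 1000 UMIs, at least 1 UMI of the 6 genes was found in 2 of 47 vehicle cells (4.26%), 12 of 70 low-dose cells (17.1%) and 10 of 80 high-dose cells (12.5%), with 1, 3 and 1 cells too shallow to be thinned. Without the 1, 6 and 9 cells 59 genes in place of 150 were at least 2-fold higher at the high dose, and 39 in place of 99 at the low dose.

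Of the 6 low-dose cells with such RNA 5 held a Foxp3 UMI, and of the 9 high-dose cells 4 did, while the single vehicle cell held none. Ikzf2 was found in 5 of 6 and 9 of 9, and Ctla4 in 6 of 6 and 8 of 9. The high-dose cells without a Foxp3 UMI met the rule through Ikzf2 and Ctla4 and were 17635 to 27230 UMIs deep. They held 34, 171, 134, 155 and 98 of the group's 829 UMIs of the 6 cell-cycle genes. The high-dose cells with a Foxp3 UMI held 13, 15, 183 and 6. At the low dose the cell without a Foxp3 UMI held 131 of 852.

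**Figure D4:**
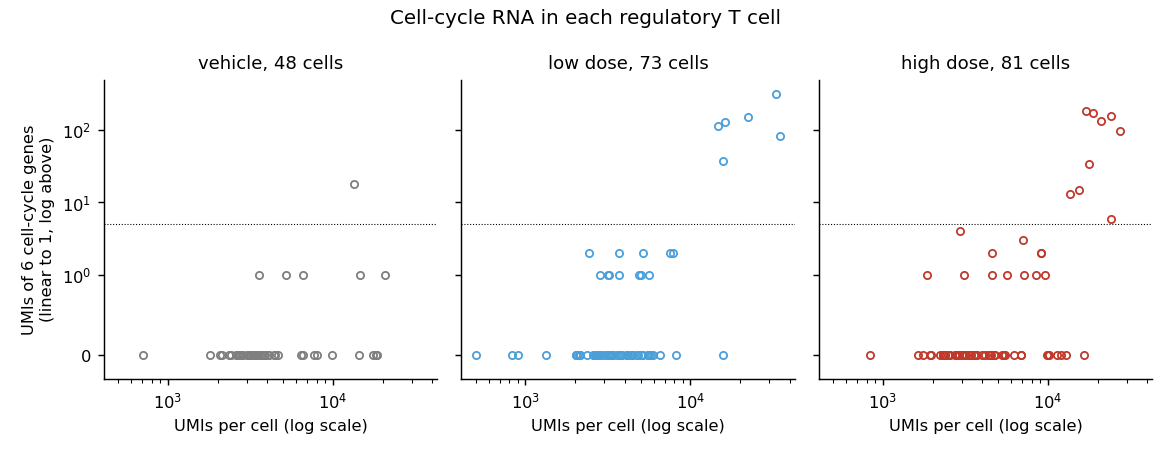
Each circle is 1 regulatory T cell, placed by its depth in UMIs (horizontal axis, logarithmic) and its UMIs over 6 cell-cycle genes (vertical axis, linear to 1 and logarithmic above), with the groups side by side and a dotted line at 5 UMIs. The 1 vehicle cell, 6 low-dose cells and 9 high-dose cells above the line lie to the right in their panels.

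In the conventional CD4 T cells the summed level of the cell-cycle list was 2797, 2778 and 5523 CPM, with 33 of 46 genes at least 2-fold higher at the high dose and 0 of 21 at the low dose, where 2.52% and 0.886% of all genes compared in these cells were. The other 25 genes had enough UMIs at the high dose only, through the high-dose cells. Of the 21 compared at both doses 8 were higher at the high dose. Cells with at least 5 UMIs of the 6 genes were 1 of 196, 0 of 273 and 18 of 372. In the CD8 T cells the list went from 4917 to 3291 and 3195 CPM, with 17 of 40 genes at least 2-fold lower at the high dose and 20 of 39 at the low dose, against 2.51% and 1.69% of all genes compared. Such cells were 6 of 198, 1 of 277 and 3 of 289. The difference between the cell types was not tested, since there is 1 sample of each.

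**Figure D5:**
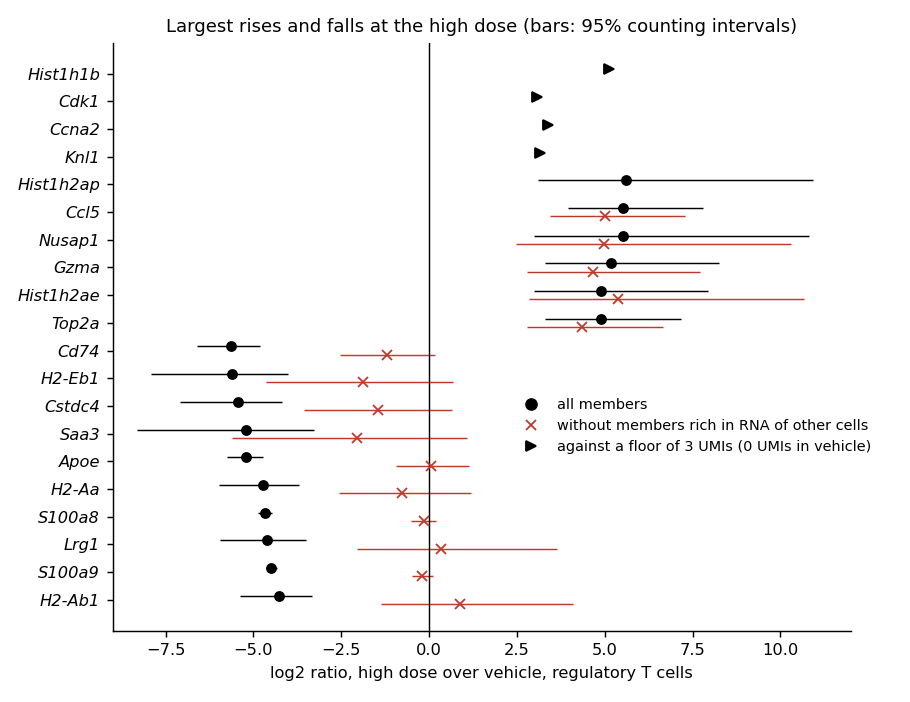
Log2 ratio of the high dose over the vehicle in regulatory T cells (horizontal axis) for the 10 largest rises and 10 largest falls, with 95% counting intervals, for all members (black) and without the 7 members rich in RNA of other cells (red); a triangle is the ratio to a floor of 3 UMIs for a gene with 0 UMIs in the vehicle cells. The rises stay above 2 where a value remains, and the falls move toward 0, with intervals that include 0.

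Ccl5 and Gzma were also among the largest rises at the high dose but lay in few cells. Ccl5, a chemokine of cytotoxic T cells, held 3, 15 and 264 UMIs, a log2 ratio of 5.53 at the high dose (3.96 to 7.81), with 128 of the 264 UMIs in 1 cell and a UMI in 14 of 81 cells. Gzma, a granule protease, held 2, 27 and 139 UMIs, a log2 ratio of 5.18 at the high dose (3.30 to 8.24), with 110 of the 139 in 1 high-dose cell and 25 of the 27 in 1 low-dose cell. Nkg7, a granule membrane protein, was not in the set of largest rises and was picked after its values were seen. Nkg7 held 3, 3 and 125 UMIs, a log2 ratio of 4.45 (2.87 to 6.74), in 12 of 81 high-dose cells. In the conventional CD4 T cells Ccl5 stood at 54.0, 44.3 and 19.4 CPM and Nkg7 at 22.1, 23.6 and 37.0 CPM. Gzma held 0, 55 and 33 UMIs there, with 51 of the 55 in 1 low-dose cell and 27 of the 33 in 1 high-dose cell. In the CD8 T cells Ccl5 stood at 768, 224 and 891 CPM and Gzma at 84.6, 23.3 and 51.7 CPM.

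The largest falls were in genes known mainly from neutrophils, macrophages and antigen-presenting cells. Cd74 held 311, 22 and 12 UMIs, a log2 ratio of -5.63 at the high dose, but 249 of the 311 were in 1 vehicle cell, and without the 7 cells the ratio was -1.19 (-2.53 to 0.18). S100a8 held 3131, 234 and 234 UMIs and S100a9 3821, 549 and 326, with 2986 and 3595 of the vehicle UMIs in 1 cell, and their ratios went from -4.68 and -4.49 to -0.15 and -0.19. Apoe went from -5.21 to 0.05, H2-Aa from -4.73 to -0.78, H2-Eb1 from -5.62 (-7.92 to -4.01) to -1.87, Cstdc4 from -5.45 to -1.45 and Saa3 from -5.22 (-8.32 to -3.27) to -2.04. Lrg1 and H2-Ab1 changed sign, from -4.60 to 0.35 and from -4.27 to 0.87. None of the 10 had an interval off 0 without the 7 cells.

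Of the label markers, Tnfrsf4 had a log2 ratio of 0.72 (0.30 to 1.15) at the high dose and 0.91 (0.48 to 1.35) at the low dose, and 0.72 and 0.95 without the 7 cells. At the high dose the ratio was 0.20 from the mean of the cells' own CPM and 1.43 among the members with a Foxp3 UMI. A Tnfrsf4 UMI was found in 43.8%, 53.4% and 70.4% of cells, and after thinning to 1000 UMIs in 19.1%, 21.4% and 32.5%, a difference of 13.4 points at the high dose (-3.98 to 28.5). No B cell of any group held a Tnfrsf4 UMI at that depth. In the conventional CD4 T cells, too, Tnfrsf4 was lowest in the vehicle group.

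Ctla4 had a log2 ratio of 1.21 (0.76 to 1.67) at the low dose, 1.23 without the highest cell of each group, and 0.03 at the high dose. Without the 7 cells it had 1.09 and -0.17. It was the only label marker past 2-fold. Ikzf2 had -0.44 (-0.70 to -0.19) and 0.08, and without the 7 cells -0.80 and -0.34. Foxp3 had 0.32 and 0.12 (-0.30 to 0.54 at the high dose), and without the 7 cells -0.05 and -0.30, a change of sign within the counting error. Izumo1r had 0.45 and 0.44, but 0.12 and 0.03 without the 7 cells. Since Foxp3, Ikzf2 and Ctla4 chose the cells, a change in one of them also changes which cells are counted.

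Of 13 genes known for regulatory T cells that could be compared at the high dose, 2 were at least 2-fold higher and 2 lower, against 4.87% and 4.13% of all genes, with a median log2 ratio of 0.23. Of 12 without the 7 cells, 1 was higher and 1 lower, against 5.33% and 1.62%. Tnfrsf9 (4-1BB, a co-stimulatory receptor of recently activated cells) held 5, 49 and 41 UMIs, a log2 ratio of 2.76 (1.44 to 4.45) at the low dose and 2.10 at the high dose, and 2.64 and 1.90 without the 7 cells. It was detected in 4 of 48, 12 of 73 and 12 of 81 cells, and in the conventional CD4 T cells it stood at 4.43, 1.43 and 0.902 CPM. Rgs1 had 1.18 at the high dose and 0.73 without the 7 cells. Swap70, a factor in cytoskeletal signaling, was lower, with 27, 20 and 18 UMIs and a log2 ratio of -1.52 (-2.47 to -0.61), and -1.53 without the 7 cells. Cd81, a tetraspanin, had -1.01 and -0.69. Nrp1 had -0.72, and -1.16 (-1.83 to -0.47) without the 7 cells.

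In the interleukin 2 and STAT5 list 0 of 9 genes were past 2-fold at the high dose, where 4.87% of all genes compared were higher and 4.13% lower. Il2ra had a log2 ratio of 0.17 (-0.44 to 0.81), and -0.35 (-0.96 to 0.29) without the 7 cells. Il2rb had 0.48 (0.05 to 0.92) and 0.27 (-0.19 to 0.75), and the common gamma chain Il2rg 0.98 (0.48 to 1.52) and 0.50. Icos had 0.88 (0.34 to 1.45). Of 23 transcription factors 0 were past 2-fold, with a median of -0.00, and of 13 central genes 0, with a median of -0.16, against the same shares. Without the 7 cells 1 of 22 transcription factors was higher and 1 lower, against 5.33% and 1.62% of all genes, with a median of -0.19. These were Id2, which went from 0.81 to 1.23 (0.57 to 1.95), and Tcf7, which went from -0.62 to -1.05 (-1.76 to -0.33). Of 12 central genes 2 were then lower, against 1.62% of all genes, with a median of -0.52.

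The effector list also turned on the 7 cells. With all members 1 of 28 genes was higher and 3 were lower at the high dose, against 4.87% and 4.13% of all genes, with a median of -0.21. With the 7 cells left out, 6 were higher and 1 lower, against 5.33% and 1.62%, with a median of 0.14. At the low dose 0 of 27 were higher and 7 lower, against 3.79% and 4.29% of all genes, with a median of -0.43. Without the 7 cells 1 of 24 was higher and 3 were lower, against 3.74% and 1.96%, with a median of -0.10. In the cells that remained, the monocyte and macrophage markers stood at 370, 441 and 888 CPM, a log2 ratio of 1.26 at the high dose, and their part in the effector counts was not tested. S100a6 went from -0.43 to 1.18 and Lgals3, a galectin also abundant in macrophages, from -1.63 to 2.34. Lgals1 held 292, 590 and 1064 UMIs and had 0.93 (0.74 to 1.12) with all members and 0.62 (0.42 to 0.82) without the 7 cells. S100a4 stood at 1279, 581 and 1422 CPM, a log2 ratio of -1.14 at the low dose and 0.15 at the high dose.

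Of 5 suppressive effector genes compared at the high dose, 2 were higher, against 4.87% of all genes compared. These were Gzma and Gzmb, the latter with 16, 14 and 72 UMIs and a log2 ratio of 1.24 (0.44 to 2.12). Of the 72 UMIs 34 were in 1 cell, and a Gzmb UMI was found in 5 of 48, 7 of 73 and 6 of 81 cells. Tgfb1, the cytokine by which regulatory T cells act on many cell types, had -0.32, and no helper cytokine gene had enough UMIs, with 8, 4 and 30 over 12 genes. Of 17 genes of T cell receptor signaling and immediate early response, 2 were higher and 1 lower, against 4.87% and 4.13% of all genes. Dusp2, a phosphatase induced by receptor signaling, held 17, 53 and 109 UMIs, a log2 ratio of 1.75 and 1.41 without the 7 cells, while Jun had -1.18 and -1.05. Cd69 held 26, 33 and 130 UMIs, with 73 in 1 high-dose cell, and went from 1.39 to 0.38 without the highest cell of each group.

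Interferon-stimulated genes are a known response to the drug in other cells, and 5 of 36 were at least 2-fold higher at the high dose, against 4.87% of all genes compared, and 0 lower, with a median log2 ratio of 0.11. Of 36 without the 7 cells, 4 were higher, against 5.33% of all genes. At the low dose 0 of 28 were higher or lower, against 3.79% and 4.29% of all genes, with a median of -0.32. Without the 7 cells 1 of 27 was higher and 2 were lower, against 3.74% and 1.96%, with a median of -0.44. Isg15, a ubiquitin-like protein, held 4, 10 and 51 UMIs, a log2 ratio of 2.74 (1.29 to 4.67), with 26 of the 51 in 1 cell, and Ly6a, also a T cell activation gene, 7, 20 and 76 UMIs (2.51). Irgm1 had 1.22, Epsti1 1.15 (0.85 without the 7 cells) and Ly6e 1.13. At the low dose Ly6e went from 0.44 to 1.31 without the 7 cells, Igtp from -0.92 to -1.07 and Gbp4 from -0.72 to -1.41. Ifi27l2a, the most abundant of the list, had 0.48. Both Isg15 and Ly6a had under 10 UMIs in the vehicle cells.

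The genes nearest to the drug's target are read against the share of all genes past 2-fold. With all members this was 4.87% higher and 4.13% lower at the high dose, and 3.79% and 4.29% at the low dose. Without the 7 cells it was 5.33% and 1.62% at the high dose, and 3.74% and 1.96% at the low dose. Ssrp1 and Supt16, the subunits of FACT, held 33, 65 and 64 UMIs and 37, 71 and 72 UMIs, log2 ratios of 0.02 and 0.03 at the high dose and of -0.26 and -0.09 without the 7 cells. Of 13 genes of FACT and other histone chaperones 0 were past 2-fold at the high dose, with a median of 0.16 and a summed level that went from 3445 to 4303 CPM, a log2 ratio of 0.32 (0.21 to 0.43). At the low dose 1 of 13 was higher, Nasp, with a median of 0.41 and a summed level of 4539 CPM, a log2 ratio of 0.40 (0.28 to 0.51). Without the 7 cells 0 of 13 were past 2-fold at either dose, Nasp went from 1.05 to 0.74 at the low dose, and the log2 ratios of the sums were 0.11 (-0.01 to 0.23) at the high dose and 0.20 (0.08 to 0.33) at the low dose. Zbp1, the sensor of left-handed (Z-form) nucleic acid, held 19, 33 and 53 UMIs, a log2 ratio of 0.55, and Casp8, which acts in the same cell-death pathway, 18, 50 and 74 UMIs, a log2 ratio of 1.11 and of 0.85 without the 7 cells. Of 9 p53 targets 1 was higher, Ccng1, with 8, 19 and 49 UMIs, a log2 ratio of 1.68 (1.35 without the 7 cells). Without those cells 1 of 7 was also lower, Sesn1, which went from -0.78 to -1.12. Of 11 NF-kB genes 0 were past 2-fold, and of 11 heat shock genes 1 was higher, the mitochondrial chaperone Hspd1, with 21, 42 and 105 UMIs and a log2 ratio of 1.39. Of 9 genes listed with the BCL2 family 1 was higher, again Casp8, and without the 7 cells 0 of 7. Of 15 metabolic genes 1 was lower, Fdps, which had -1.17 with all members and -0.25 without the 7 cells.

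The same rule found 35 regulatory T cells in the library labelled spleen, 2 of 820 barcodes in the vehicle group, 4 of 1318 at the low dose and 29 of 2345 at the high dose. Their share of barcodes was 0.244%, 0.303% and 1.24%, and the high dose was 0.993 points above the vehicle (0.239 to 1.57). Of the CD4-type T cells there they made up 29 of 74 at the high dose, 39.2% (28.0 to 51.2), against 17.9% in the library labelled liver. In both libraries a Cd4 UMI was required of the conventional cells only. The 29 cells held Foxp3 at 266 CPM, Ikzf2 at 915 CPM, Tnfrsf4 at 353 CPM and Il2ra at 226 CPM. With 2 vehicle and 4 low-dose cells, no level could be compared between doses. The libraries shared 15 barcode sequences, and 0 of them were regulatory T cells.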

How the data were processed

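Cells of 2 pooled mice per group were hashtagged, and the groups were sequenced together as 1 droplet library per tissue label, per the labels. The files deposited are filtered matrices that hold, for each barcode, whole UMI counts of genes and hashtags, not normalized. The matrix header names Cell Ranger 5.0.0 and the submitters' processing notes Cell Ranger 6.0.0, Seurat and the mm10 genome. Gene positions are those of a GENCODE annotation of that build.

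Counts were read with pandas 2.3.3 and scipy 1.17.1 in Python 3.11.15 (numpy 2.4.6). Scrublet was run in scanpy 1.11.5, and figures were drawn with matplotlib 3.10.9. Members, conventional CD4 T cells (CD3, CD8 and CD79 conditions met, a Cd4 UMI, rule not met), CD8 T cells (CD3, a CD8 UMI, no Cd4, at most 1 CD79 UMI) and B cells (at least 2 CD79 UMIs, 0 CD3) were selected on raw counts with no further filter on cells. The members and gene lists were chosen with earlier results of these data known, and some lists follow tables of that earlier work. UMIs were summed per group and cell type. Levels are CPM with exact Poisson intervals, and ratios of sums have exact conditional binomial intervals, all at 95%. A gene was compared with at least 40 UMIs over both groups, and called past 2-fold. The genes named were the rule's and label markers, the 10 largest rises and falls at the high dose with an interval off 0 (mitochondrial and ribosomal protein genes left out), the 15 highest and 10 lowest against conventional CD4 T cells over all 3 groups, and list members with enough UMIs. Genes named outside these for being past 2-fold, such as Nkg7, were picked after their values were seen. Intervals were checked on simulated data. Doublets were sought with Scrublet, which marked 232 of 9591 barcodes (2.42%) and 1 member, and were kept except in an alternative. In the library labelled spleen it marked 0 of 4830, and whether the caller worked there was not tested. Alternatives were HTODemux in Seurat 5.3.0 under R 4.3.3, stricter hashtag calls, other rules for members, cell filters, thinning to 1000 or 2000 UMIs, other count minimums, scaling and pooling of cells, and leaving out barcodes with RNA of other cells. The study's own cell-type names were not used here.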

Additional observations from a re-analysis of the deposited data

Results flagged for a closer look

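The cell-cycle list moved in opposite directions in regulatory and CD8 T cells. Against the vehicle, its summed level differed by a log2 ratio of 1.49 in the regulatory T cells and -0.622 in the CD8 T cells at the high dose, and by 1.53 and -0.579 at the low dose. These differences were not tested, because each group is 1 pooled sample, and both doses share the vehicle cells. In the regulatory T cells 9 of 81 high-dose and 6 of 73 low-dose cells held 79.6% and 83.8% of the UMIs of the list, and 1 of 48 vehicle cells 20.8%. In the CD8 T cells 6 of 198 vehicle cells, 1 of 277 low-dose cells and 3 of 289 high-dose cells held at least 5 UMIs of the 6 cell-cycle genes.

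A further 12 barcodes met the rule for regulatory T cells but had no hashtag group, among 680 such barcodes. Their median depth was 6847 UMIs, and 0 of them had fewer than 10 hashtag UMIs, so that each missed a group because no hashtag had 3 times the next. Foxp3 was detected in 11 of the 12, and Tnfrsf4 held 30 UMIs over 8 of them. Such barcodes may hold cells of 2 groups, which was not tested.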

How the results depend on the processing

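No paired analysis was possible because each group is 1 pooled sample and the hashtag groups carry no replicate numbers. There was no replicate to leave out.

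Percentage-point differences in share from the vehicle are given for the regulatory T cells, as are counts of genes past 2-fold. With barcodes of 5 or more UMIs of S100a8 and S100a9, or of Igkc and Ighm, left out, the share of barcodes reversed at the low dose, to -0.0839 points, with 24 vehicle and 18 low-dose members remaining, and fell to 0.819 points at the high dose. Genes higher and lower then numbered 16 and 3 at the high dose and 7 and 4 at the low dose, over fewer members and fewer genes compared. In the library labelled spleen the same rule gave 0.0596 points at the low dose and 0.993 at the high dose of barcodes. At the high dose it gave 17.0 points of CD4-type T cells (-22.4 to 39.8) and 6.23 of T cells (1.54 to 9.72). With Foxp3 alone as the rule 79 genes were higher at the high dose. A minimum of 20 UMIs gave 368 higher and 345 lower genes at the high dose and 289 and 330 at the low dose, a minimum of 80 UMIs gave 49 and 51, and 34 and 52, and no minimum gave 978 and 1251, and 1043 and 1398.

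The following alternatives were chosen after seeing the data. Without T cells of 50 or more S100a8 and S100a9 UMIs or 10 or more Cd74 UMIs, 45 genes were lower at the high dose and 43 at the low dose in the regulatory T cells. In the conventional CD4 T cells 38 and 28 were lower, and in the CD8 T cells 86 were lower at the high dose, and 42 higher and 69 lower at the low dose. Without the cells rich in cell-cycle RNA 59 genes were higher at the high dose and 39 at the low dose. The log2 ratios of Apoe (0.0487), Lrg1 (0.354) and H2-Ab1 (0.868) at the high dose and of Ngp against the conventional cells (0.249 at the low dose) reversed without the first set of cells, and that of Cd74 (0.546) under the planned minimum of 5 UMIs. In the vehicle group Ngp went from -2.50 to 0.13 (-0.96 to 1.09) without the first set of cells. Ltf, not counted among these reversals, went from -3.88 to 1.29 (-2.18 to 4.09). The cause was not tested in any of these. Hist1h1b, Cdk1, Ccna2 and Knl1 had 0 vehicle UMIs and gave no ratio under the alternatives. No share or gene count moved under HTODemux groups, the stricter hashtag call, the filter on genes and mitochondrial UMIs, Scrublet, the rule of 2 of the 3 genes, pooling by cell, or scaling without the most abundant genes. Over all alternatives 106 values of shares and gene counts stayed near those reported, 31 moved and 1 reversed. Of the ratios of the label markers, the largest rises and falls and the genes furthest from the conventional cells, 242 stayed near, 61 moved and 5 reversed. List members named in the results, such as Lgals3 and S100a6, are not in this count, and the change of sign of Foxp3, within its counting error, is among those that moved. The ratios of Ikzf2 and Ctla4 at the high dose also changed sign without the first set of cells, and they are not among the 5 that reversed.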
